A study of Cavia porcellus with 12 samples.

Results

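The liver is the main organ that releases glucose into the blood, and it does so through enzymes that most other cells do not have. Gluconeogenesis runs from pyruvate to glucose through pyruvate carboxylase (*PC*), phosphoenolpyruvate carboxykinase (*PCK1*), fructose-1,6-bisphosphatase (*FBP1*) and glucose-6-phosphatase (*G6PC*). Glycolysis runs the other way through a hexokinase, a phosphofructokinase and a pyruvate kinase, each of which exists as isozymes. Resting hepatocytes use the liver-type phosphofructokinase (*PFKL*) and the liver pyruvate kinase (*PKLR*), whereas leukocytes, fibroblasts, bile duct cells and dividing cells rely on hexokinases (*HK1*, *HK2*, *HK3*), the platelet-type phosphofructokinase (*PFKP*) and the muscle-type pyruvate kinase (*PKM*). The genes described here are 5 liver enzymes (*G6PC*, *PCK1*, *FBP1*, *PC* and *PKLR*) and 5 isozymes of other tissues (*HK1*, *HK2*, *HK3*, *PKM* and *PFKP*), taken by name wherever the table of the study holds them. Of these 10 genes, 8 were among the 11896 gene symbols tested, 4 of each kind. *FBP1* and *HK1* were not analysed here.

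The samples were livers of female guinea pigs of the Dunkin Hartley strain, which arrived at 10 weeks of age and were randomised in blocks of body weight after 1 week. Controls (n = 6, healthy) ate chow with 4% fat and neither sucrose nor cholesterol. NASH animals (n = 6) ate a high-fat diet in which fat made up 20%, sucrose 15% and added cholesterol 0.35%. Both diets lasted 25 weeks. The NASH animals had been picked for bridging fibrosis (grade 3), so that diet and disease cannot be told apart and milder disease is not represented. All tissue came from the left lateral lobe of livers that had not been perfused, and each animal gave 1 library of stranded, single-read mRNA sequencing. Animals are named by the numbers of their labels (5, 10, 31, 32, 45 and 56 in controls, 2, 9, 11, 20, 41 and 65 in NASH).

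Total counts per library were 16980274 to 28636467 among controls and 23704607 to 33091460 among NASH animals. Levels are given as CPM, the count relative to the library size after scaling for library composition with the TMM factors of edgeR, which were 0.804 to 0.875 for controls and 1.116 to 1.241 for NASH. Because the files give no transcript lengths, levels are compared between animals and not between genes. A gene was called higher or lower at a Benjamini-Hochberg adjusted p-value under 0.05 in the quasi-likelihood test of edgeR over all 11896 symbols, and 53.9% of them were called (27.9% higher and 26.0% lower in NASH). Groups without overlap in CPM were seen in 33.7% of the symbols.

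Of the 8 isozyme genes, 7 were called in NASH. All 4 liver enzymes found were lower (*PCK1*, *G6PC*, *PKLR* and *PC*) and 3 of the 4 other isozymes were higher (*HK2*, *PKM* and *PFKP*), while *HK3* did not pass the threshold. The groups did not overlap in 6 of the 8, the exceptions being *PC* and *HK3*. The 4 liver enzymes had a median log2 fold change of −1.53 and the 4 other isozymes one of 1.40, against 0 for all genes tested. In bulk tissue, fewer cells of a type cannot be told apart from less RNA per cell. When only library size was used for scaling, the median of all genes moved to 0.48 and calls split into 7603 higher and 911 lower, against 3318 and 3093. Before any shift by that median, *PCK1*, *G6PC* and *PKLR* were then at −2.45, −1.69 and −0.43 (adjusted p = 0.0143 for *PKLR* in edgeR). Relative to that median, the log2 fold changes of *PCK1*, *G6PC*, *PKLR* and *PC* were −2.93, −2.17, −0.91 and −0.48. Those of *HK2*, *PKM*, *PFKP* and *HK3* were 1.76, 1.55, 1.25 and 0.33. Taking off the median nearly restores the values with TMM factors by construction, so these are no separate check of the scaling.

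**Figure D1:**
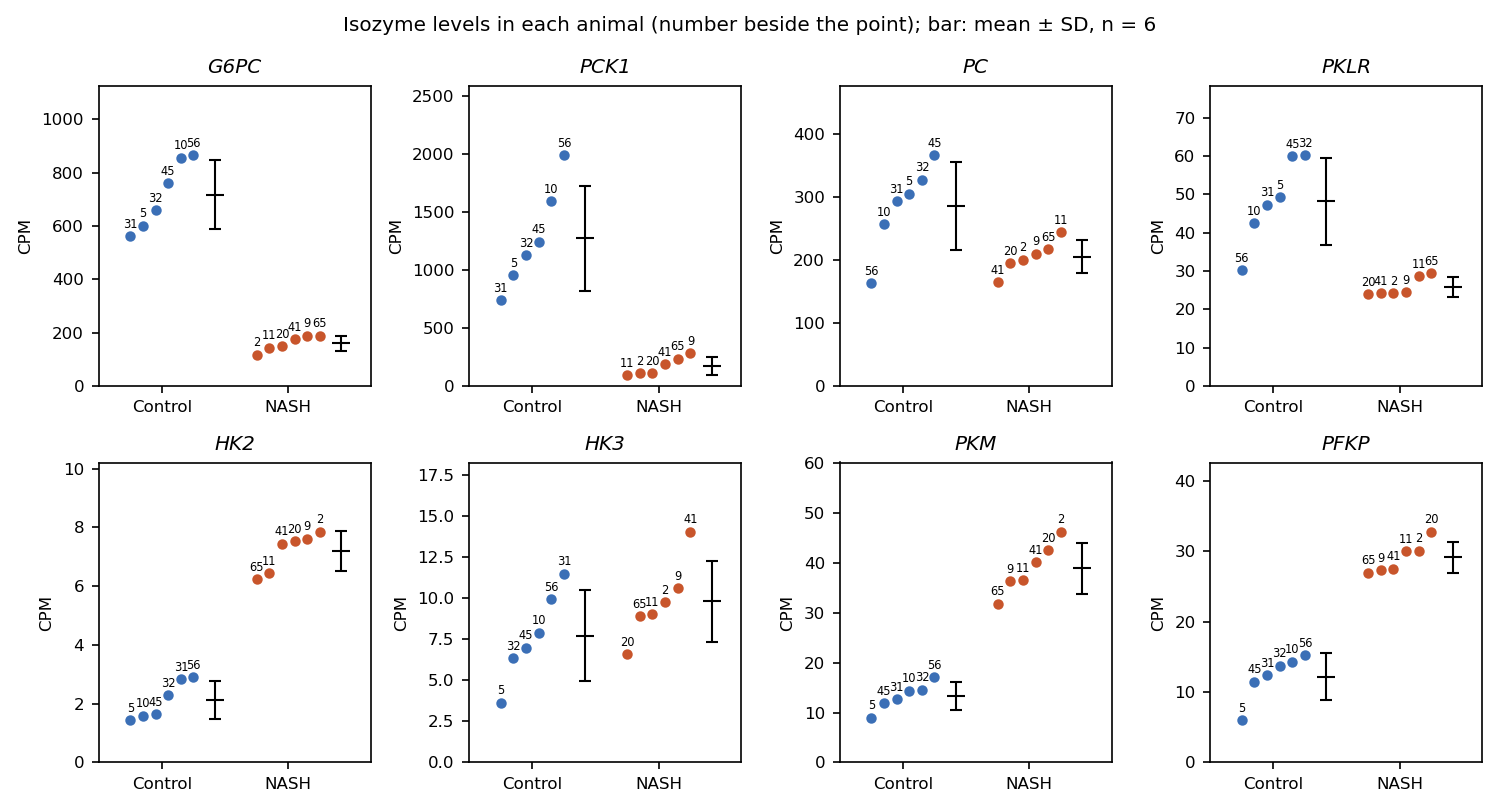
Level of each isozyme gene (CPM, linear axis from 0) in the 6 control and 6 NASH animals, with the animal number beside each point and the mean ± SD at the right of each group. *G6PC*, *PCK1* and *PKLR* lie lower and *HK2*, *PKM* and *PFKP* higher in every NASH animal than in every control, whereas *PC* and *HK3* overlap.

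*PCK1* encodes the cytosolic enzyme that turns oxaloacetate into phosphoenolpyruvate, a rate-controlling step of gluconeogenesis. Its level ranged from 741 to 1991 CPM in controls (median 1188) and from 92.5 to 282 CPM in NASH (median 150). The highest NASH animal, 9, was below the lowest control, 31. Mean levels were 1276 ± 453 CPM (SD, n = 6) and 169.6 ± 78.1 CPM (SD, n = 6), 7.53-fold lower in NASH, and edgeR put the log2 fold change at −2.91 ± 0.33 (SE) with an adjusted p of 1.39e-05. Only 34 of the 11896 symbols had a lower log2 fold change.

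*G6PC* encodes the catalytic subunit of the enzyme that frees glucose from glucose-6-phosphate in the endoplasmic reticulum, the last step shared by gluconeogenesis and glycogen breakdown. It ranged from 561 to 865 CPM in controls (median 711) and from 118 to 188 CPM in NASH (median 162). The groups were far apart. The means were 717 ± 129.9 and 160.3 ± 28.4 CPM (SD, n = 6 each), 4.47-fold lower in NASH, and edgeR put the log2 fold change at −2.16 ± 0.15 (SE) with an adjusted p of 2.55e-07.

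*PKLR* encodes the pyruvate kinase of liver and of red blood cells. Its level spanned 30.2 to 60.2 CPM in controls (median 48.3) and 23.9 to 29.45 CPM in NASH (median 24.4). The gap was narrow on one side, because control 56 stood just above the highest NASH animal, 65. The means were 48.25 ± 11.3 and 25.8 ± 2.51 CPM (SD, n = 6 each), a difference that edgeR put at −0.90 ± 0.15 (SE) on the log2 scale with an adjusted p of 0.000209. In RefSeq assembly mCavPor4.1, the interval of *PKLR* overlaps that of *HCN3*, which had a count row of its own with a mean of 1.22 CPM. Erythroid markers were highest in NASH animals 41 and 65, and *PKLR* was at 24.2 and 29.45 CPM in these. Without both animals, its log2 fold change was −0.94 (adjusted p = 0.00114 from edgeR).

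*PC* encodes the mitochondrial enzyme that carboxylates pyruvate to oxaloacetate, which feeds both gluconeogenesis and the citric acid cycle. It ranged from 163 to 367 CPM in controls (median 300) and from 165 to 245 CPM in NASH (median 205). Control 56 was lower than every NASH animal, and the other 5 controls were higher than every NASH animal. In edgeR the log2 fold change was −0.48 ± 0.16 (SE), with an adjusted p of 0.0259, and this change was the smallest of the 7 called. Without control 32, control 45 or NASH animal 41, the adjusted p-value from edgeR was 0.0545, 0.0613 or 0.0569, and without NASH animals 41 and 65 it was 0.0768. With library size alone the log2 fold change was 1.2e-05. The RefSeq interval of *PC* overlaps that of *LRFN4*, which had its own count row with a mean of 13.7 CPM.

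*HK2* encodes the insulin-responsive hexokinase of muscle and fat, an isozyme that resting hepatocytes hardly use. Its level ranged from 1.43 to 2.89 CPM in controls (median 1.97) and from 6.23 to 7.855 CPM in NASH (median 7.495). These levels rest on 20 to 61 counts in a control and 178 to 292 counts in a NASH animal. The means were 2.12 ± 0.653 and 7.19 ± 0.675 CPM (SD, n = 6 each), 3.40-fold higher in NASH, and edgeR put the log2 fold change at 1.76 ± 0.18 (SE) with an adjusted p of 4.7e-06. It had the largest rise of the 8 genes, and 728 of all symbols had a larger one.

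*PKM* encodes the pyruvate kinase of muscle, leukocytes and most dividing cells, whose M1 and M2 forms arise by splicing and were counted together. It ranged from 9.004 to 17.1 CPM in controls (median 13.5) and from 31.8 to 46.25 CPM in NASH (median 38.3). Every NASH animal was above every control. The means were 13.3 ± 2.75 and 38.9 ± 5.12 CPM (SD, n = 6 each), 2.93-fold higher in NASH, and edgeR put the log2 fold change at 1.55 ± 0.14 (SE) with an adjusted p of 1.81e-06.

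*PFKP* encodes the platelet-type subunit of phosphofructokinase, which commits fructose-6-phosphate to glycolysis. It ranged from 6.00 to 15.2 CPM in controls (median 13.05) and from 27.0 to 32.8 CPM in NASH (median 28.8), without overlap. The means were 12.2 ± 3.31 and 29.1 ± 2.26 CPM (SD, n = 6 each), a difference that edgeR put at 1.25 ± 0.17 (SE) on the log2 scale with an adjusted p of 5.64e-05. Control 5 was the lowest animal of all for *PFKP* and *PKM*.

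*HK3* encodes a hexokinase found mainly in myeloid leukocytes. Its level spanned 3.64 to 11.5 CPM in controls (median 7.45) and 6.61 to 14.05 CPM in NASH (median 9.38). The groups overlapped over most of their range. In edgeR the log2 fold change was 0.35 ± 0.24 (SE), with an adjusted p of 0.249, and with library size alone it was 0.81 (adjusted p = 0.012 from edgeR). In RefSeq, *HK3* overlaps *UNC5A*, which was not among the genes tested.

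The spread between animals differed from gene to gene. In NASH, the highest animal was 1.22-fold above the lowest for *PFKP* and 1.23-fold for *PKLR*, against 2.53-fold and 1.99-fold in controls. *PCK1* was the most variable of the 8 genes in NASH, at 3.05-fold, and *HK3* the most variable in controls, at 3.16-fold. These spreads were not tested against each other.

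*PCK1* and *G6PC* had the same 3 animals on top in each group. These were 56, 10 and 45 in controls and 9, 65 and 41 in NASH. In *PKLR* and *PC*, by contrast, control 56 was the lowest and control 10 the next lowest of the controls. *PPARGC1A*, a coactivator of gluconeogenic genes, was at 19.2 and 18.65 CPM in controls 10 and 56 and between 7.76 and 11.4 CPM in the other controls. *KLF15*, a transcription factor induced by fasting, was also highest in these controls, at 186.8 and 191.6 CPM, against 58.0 to 159 CPM in the rest. *PPP1R3C*, a glycogen-targeting subunit of protein phosphatase, was lowest in the same controls, at 25.6 and 48.7 CPM, against 118 to 192 CPM. Some other genes of the lists did not set both of these controls apart. *PDK4* was at 365 and 300 CPM in controls 10 and 56, against 220 to 325 CPM in the rest. *CREB3L3*, a transcription factor of hepatocytes, was at 55.1 and 63.1 CPM, against 38.55 to 80.2 CPM. The sources used here give no feeding state of single animals.

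The counts of calls did not rest on controls 10 and 56. Without them, the 8 genes gave 3 higher and 4 lower calls, as in all animals. The log2 fold change was then −2.585 for *PCK1*, −2.01 for *G6PC*, −1.07 for *PKLR* and −0.655 for *PC* (adjusted p = 0.000603 for *PC* in edgeR).

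**Figure D2:**
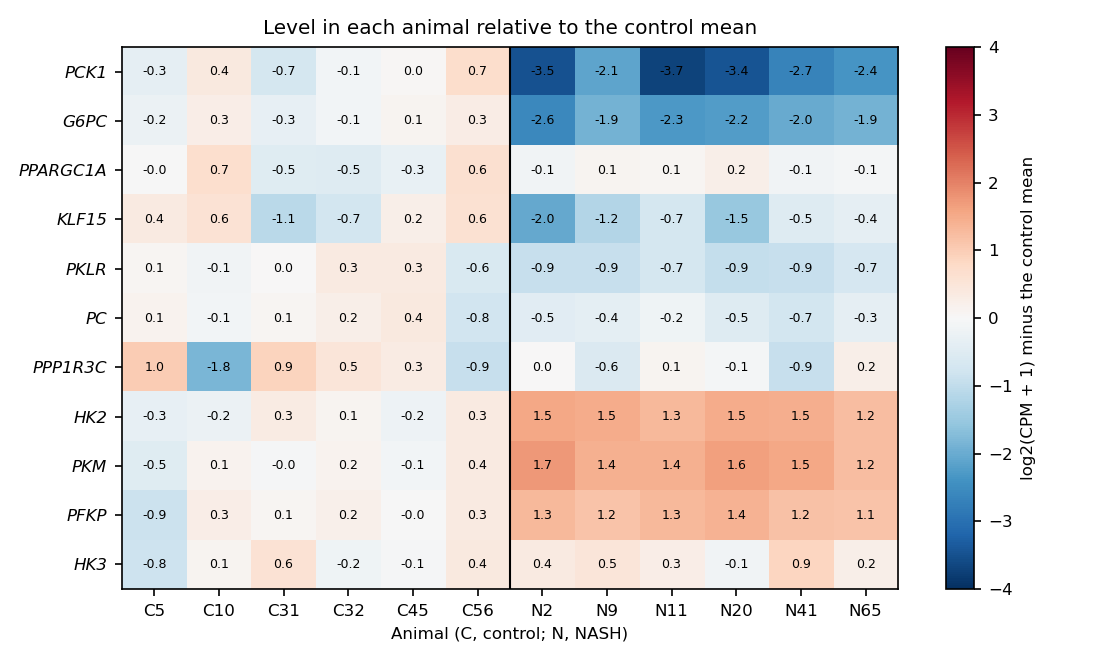
Level of 11 genes in each animal as log2(CPM + 1) minus the mean of the 6 controls, with the value in each cell, blue for lower and red for higher (C, control; N, NASH). Controls C10 and C56 are above the control mean for *PCK1*, *G6PC*, *PPARGC1A* and *KLF15*, and all NASH animals are low in *PCK1* and *G6PC* and high in *HK2*, *PKM* and *PFKP*.

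Ratios between isozymes within an animal do not depend on library size or scaling. They are given as log2 ratios of counts after 0.5 was added to each count. Their absolute value also depends on transcript length, so that only the shift between groups is read. The ratio of *PKM* to *PKLR* ranged from −2.45 to −0.82 in controls and from 0.11 to 0.93 in NASH. Its mean was −1.85 ± 0.59 (SD, n = 6) for controls and 0.59 ± 0.31 (SD, n = 6) for NASH, a shift of 2.44 on the log2 scale, or 5.41-fold. Control 56 stood closest to the NASH animals. The ratio of *PFKP* to *PFKL* shifted by 1.74, from −1.70 ± 0.54 to 0.04 ± 0.16 (SD, n = 6 each). In both ratios the groups did not overlap. For *PKM* to *PKLR* this follows from the groups being apart, in opposite directions, in *PKM* and in *PKLR*.

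Of the ratios given here, that of a hexokinase to the glucose-6-phosphatase shifted most. The log2 ratio of *HK2* to *G6PC* moved from −8.42 ± 0.53 to −4.46 ± 0.34 (SD, n = 6 each), a shift of 3.96 or 15.6-fold, with 2.70 between the nearest animals of the groups. Separation in *HK2* to *G6PC* follows from both genes being apart between groups, in opposite directions. The ratio of *G6PC* to the sum of *HK2* and *HK3* fell by 3.01 on the log2 scale, without overlap. The ratio of *PCK1* to *PCK2*, its mitochondrial counterpart, fell by 2.03, and the nearest animals were 0.28 apart.

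**Figure D3:**
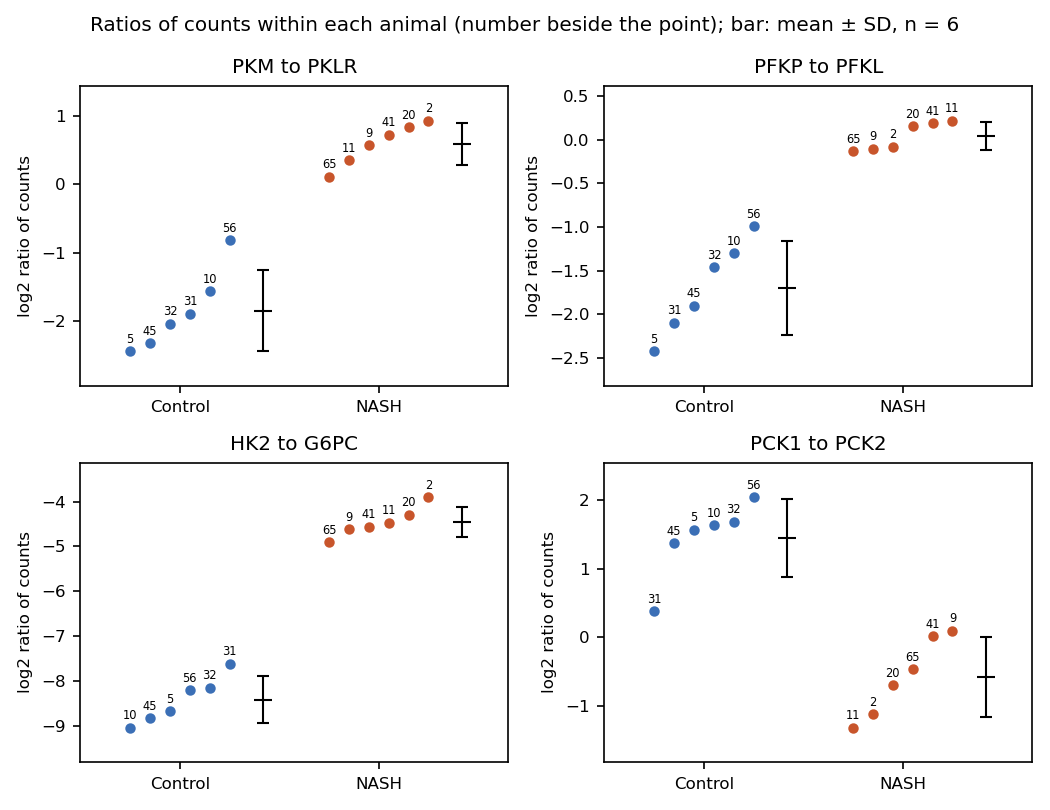
Log2 ratio of the counts of a pair of genes within each animal, by group, with the animal number beside each point and the mean ± SD at the right. The groups are apart in every panel, by 2.70 for *HK2* to *G6PC* and by 0.28 for *PCK1* to *PCK2*. For *PKM* to *PKLR* and *HK2* to *G6PC* this follows from each of these genes being apart between groups by itself.

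For context, 85 other genes of glucose metabolism in 6 lists (glucose transport and phosphorylation, upper glycolysis, lower glycolysis, pyruvate and lactate, fructose and glycogen, and regulators) were looked up. Of the 74 found, 18 were higher and 29 lower in NASH, which is 63.5% against 53.9% of all genes, with a median log2 fold change of −0.17. With library size alone, 33 were higher and 15 lower.

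In the list of transport and phosphorylation, 2 of 9 genes were higher and 2 lower, which is 44.4% called against 53.9% of all genes. *HKDC1*, a further member of the hexokinase family, rose most of all 74 genes, from 2.103 to 6.06 CPM in controls to 82.1 to 119.5 CPM in NASH, a difference that edgeR put at 4.80 ± 0.25 (SE) on the log2 scale with an adjusted p of 6.855e-08. Its neighbour in RefSeq is *HK1*, one of the genes not analysed here, and whether their reads were kept apart was not tested. *SLC37A4*, which carries glucose-6-phosphate to the active site of *G6PC*, fell by 1.56 on the log2 scale (SE 0.13, adjusted p = 7.96e-07 from edgeR), from 144 ± 9.07 to 49.0 ± 10.7 CPM (SD, n = 6 each). *SLC2A2*, the main glucose transporter of hepatocytes, had a log2 fold change of −0.47.

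In upper glycolysis, 5 of 12 genes were higher and 4 lower (75% called, against 53.9% of all genes). *PFKFB3*, which makes the phosphofructokinase activator fructose-2,6-bisphosphate in proliferating and inflammatory cells, rose by 3.20 on the log2 scale, from 2.47 ± 0.336 to 22.8 ± 3.59 CPM (SD, n = 6 each, adjusted p = 1.17e-08 from edgeR). *PFKFB1*, its liver relative, fell by 0.60 on the log2 scale. The largest fall was that of *FBP2*, at −1.33, from 436.5 ± 60.3 to 174 ± 28.2 CPM (SD, n = 6 each, adjusted p = 2.65e-06 from edgeR). *FBP2* is known as the muscle isozyme of *FBP1*, and whether its row holds reads of *FBP1* as well was not tested. *PFKL* fell by 0.45 on the log2 scale, whereas *PFKM*, the muscle type, rose by 1.20 and *ALDOA*, the aldolase of muscle and most tissues on a row with another symbol, by 1.01.

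In lower glycolysis, 3 of 8 genes were higher and 2 lower (62.5% called, against 53.9% of all genes). *GAPDH*, *PGK1* and *PGAM1*, enzymes that work in both directions, did not pass the threshold, with log2 fold changes of −0.07, −0.15 and 0.04. Of the enolases, *ENO1*, the form of most tissues, fell by 0.29, whereas *ENO2*, the neuronal form, rose by 0.34 and *ENO3*, the muscle form, by 0.76. *PCK2* fell most of this list, by 0.93. *BPGM*, which makes the haemoglobin regulator 2,3-bisphosphoglycerate in red cells, rose most, by 1.29, and reached 29.4 and 20.9 CPM in NASH animals 41 and 65, against 9.17 to 13.6 CPM in the other NASH animals.

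Around pyruvate, 2 of 15 genes were higher and 7 lower (60% called, against 53.9% of all genes). *MPC2*, a subunit of the carrier that brings pyruvate into mitochondria, fell by 1.34 on the log2 scale (SE 0.09, adjusted p = 2.28e-07 from edgeR), from 64.3 ± 8.21 to 25.3 ± 2.07 CPM (SD, n = 6 each). Its partner *MPC1* had a log2 fold change of −0.59 and did not pass. *PDK3*, a kinase that inhibits pyruvate dehydrogenase, rose most, by 1.06, whereas *PDK2* and *PDK4* fell by 1.21 and 0.61. The lactate dehydrogenases *LDHA* and *LDHB*, the latter on a row with another symbol, did not pass the threshold, at −0.17 and 0.26.

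Of 14 fructose and glycogen genes, 2 were higher and 8 lower (71.4% called, against 53.9% of all genes). *SORD*, which turns sorbitol into fructose, fell most, by 1.71, and *KHK*, the fructokinase of the liver, fell by 1.62. *GYS2*, the liver glycogen synthase, fell by 1.41, while the liver phosphorylase *PYGL* had a log2 fold change of −0.10 and did not pass. *PYGB*, the brain isozyme of the phosphorylase, rose most, by 0.63.

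**Figure D4:**
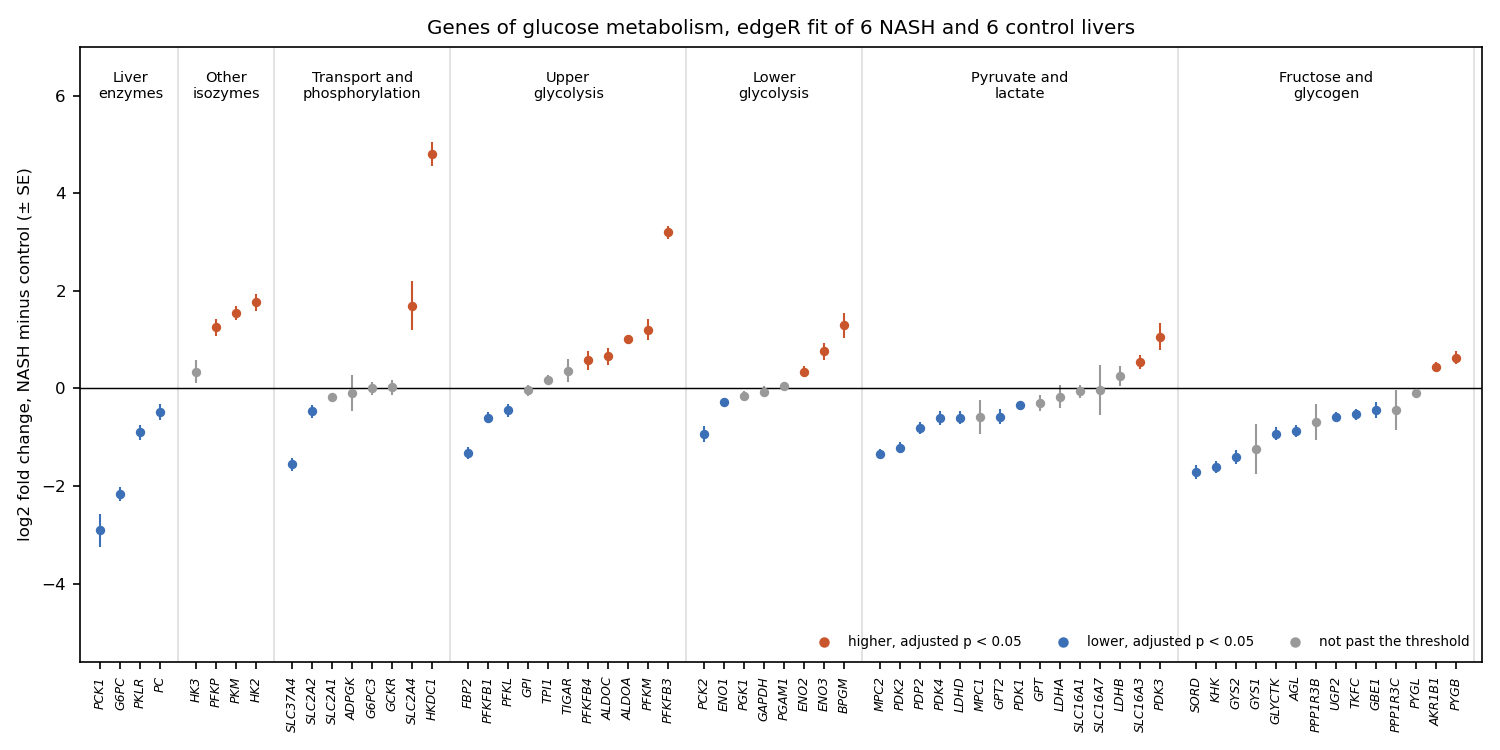
Log2 fold change (NASH minus control, ± SE, edgeR) of the 8 isozyme genes and 56 other genes of glucose metabolism, ordered by value within each list, orange for higher, blue for lower and grey for genes not past the threshold. *HKDC1* and *PFKFB3* rose most and *PCK1* had the lowest value shown.

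Markers of cell types were counted in the same way, beside 27.9% of all genes called higher and 26.0% called lower. Beside the lower liver enzymes, 7 of 8 hepatocyte markers found (of 10 listed) were lower and none was higher, with log2 fold changes from −2.20 for *TTR* to −0.58 for *APOB*, and their summed level was 107000 to 138000 CPM in controls and 42500 to 68900 CPM in NASH. *PCK1* fell further than each of them, and *G6PC* further than all but *TTR*. By contrast, *PKLR* (−0.90) lay within their range and *PC* (−0.48) fell less than each of them. Beside the higher isozymes, 5 of 9 macrophage markers were higher and 1 lower, with summed levels of 341 to 527 and 885 to 1100 CPM. *GPNMB*, a gene of lipid-laden macrophages, made up most of that difference with means of 53.96 and 498 CPM, and without it the sums of the other 8 overlapped (326.5 to 469 CPM in controls and 452.8 to 538 CPM in NASH). *TREM2* rose most of this list, whereas *MARCO*, a marker of resident macrophages, was the lower one at −1.27, and *CLEC4F*, *CD14* and *CSF1R* were not called (log2 fold changes of −0.73, 0.06 and 0.41). Of the 10 stellate cell and fibroblast markers, 8 were higher and 1 lower (731 to 873 and 1600 to 3240 CPM), and of 6 cholangiocyte markers 5 were higher (93.2 to 142 and 331 to 580 CPM). Of 6 proliferation markers 5 were higher (93.9 to 124 and 118 to 220 CPM). *PCNA*, on a row with another symbol, was the most abundant and the one not called. Without it, their sums were 1.64 to 6.87 CPM in controls and 29.4 to 109 CPM in NASH. Of 3 neutrophil markers 2 were higher (from 0.974 to 3.76 CPM in controls, overlapping with NASH). No marker found was at 0 in all controls. The part of these cells in the changes of *HK2*, *PKM* and *PFKP* was not tested.

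Erythroid markers were higher in 7 of 8, with summed levels of 71.5 to 204 CPM in controls, 471 to 762 CPM in 4 NASH animals, and 4740 and 3430 CPM in NASH animals 41 and 65. Of 7 endothelial markers 3 were higher and 2 lower (71.4% called), and of 9 lymphocyte markers 4 were higher and 1 lower (55.6%). Of all genes, 53.9% were called. Sums overlapped in both lists. Without *CD3E*, the most abundant of the lymphocyte markers, the sums of the other 8 did not overlap (16.2 to 19.05 CPM in controls and 25.35 to 34.9 CPM in NASH). Control 5 had the lowest macrophage sum, 341 CPM, and was also the lowest animal for *HK2*, *HK3*, *PKM* and *PFKP*. Without NASH animals 41 and 65, the 8 genes gave 3 higher and 3 lower calls, *PC* being the one that was lost.

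**Figure D5:**
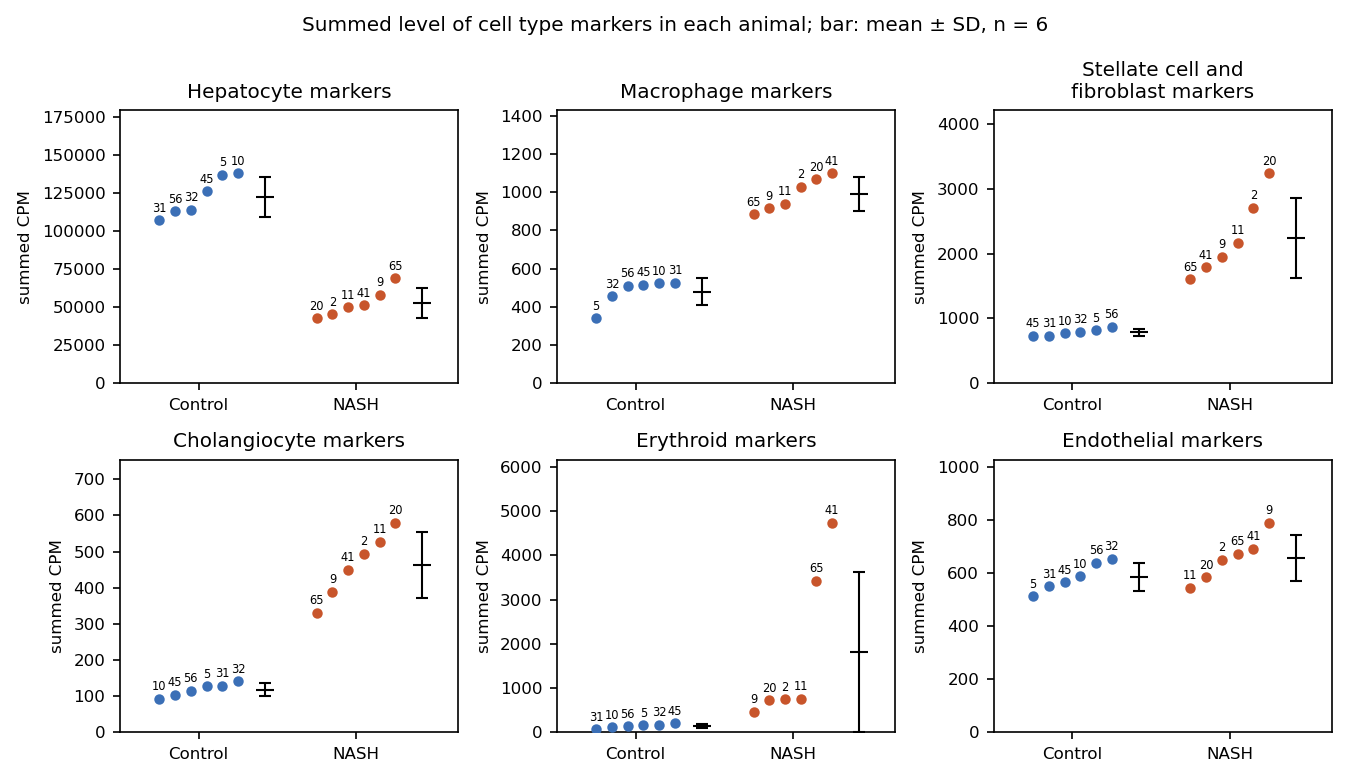
Summed CPM of the markers of 6 cell types in each animal (linear axis from 0), with the animal number beside each point and the mean ± SD at the right of each group. Hepatocyte sums are lower and macrophage, stellate cell and cholangiocyte sums higher in every NASH animal than in every control, the macrophage sum only with *GPNMB* included, and NASH animals 41 and 65 stand apart in the erythroid sum.

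For each isozyme gene, the genes with the most similar pattern were sought by the root mean square difference of log2 CPM over the 12 animals, each gene centred on its mean. Many genes came close to some of them, with 245 genes within 0.25 of *PC*, 213 of *PKLR*, 105 of *PKM*, 85 of *PFKP*, 21 of *HK2*, 6 of *HK3* and 3 of *G6PC*, so that the nearest named here are a few of many for the first 4. *PKM* was nearest to *ARPC1B* (0.105) and *LPXN* (0.124), and *PFKP* to *CD53* (0.114) and *ARHGDIB* (0.134). *HK2* was nearest to *PRDM1* (0.173) and *PLA2G15* (0.21), and *HK3* to *THEMIS2* (0.18) and *IL18RAP* (0.222). Of the liver enzymes, *PKLR* was nearest to *TBC1D16* (0.141) and *TMEM181* (0.143), *PC* to *AGMAT* (0.167) and *POLG2* (0.18), and *G6PC* to *NR1I3* (0.221) and *PLAG1* (0.242). No gene came within 0.25 of *PCK1*, whose nearest row, at 0.392, carries 5 symbols of the table.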

How the data were processed

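Liver RNA of 6 NASH and 6 control guinea pigs was analysed. The authors trimmed reads with Trimmomatic 0.38.0, mapped them with HISAT2 2.1.0 to Cavpor3.0 (Ensembl release 98), ignored multimapped reads and quantified loci with StringTie 1.3.6 (versions also in the submitters' processing notes). They deposited raw counts for 39061 loci without symbols, and log2 (rlog) values of DESeq2 for 11896 human orthologue symbols with at least 200 counts in all. Symbols were joined to count rows by rerunning rlog on the counts, which matched the deposited values within 8.35e-07 and gave 11031 rows. Each isozyme gene had a row to itself, whereas 1515 symbols shared one.

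Counts were tested in R 4.3.3 with edgeR 4.0.16 (TMM, glmQLFit with robust estimation, glmQLFTest, Benjamini-Hochberg over 11896 symbols). Library sizes were totals of the whole count table. SEs were obtained by dividing the absolute log2 fold change by the root of F. Log2 CPM used a prior count of 2. Alternatives were RLE and upper-quartile factors, library size alone, DESeq2 1.42.0, limma 3.58.1 (voom, and on rlog values), other filters, a threshold of 0.01, a null of 1 and each animal left out. Procedures were tested on simulated data. In each of the 30 pairs of animals of a group, squared differences were on average over genes at least 44.5 times the variance of counting. All 12 libraries were therefore kept as separate animals. P-values weigh the difference between groups against the spread between these animals.

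The genes and lists were chosen with earlier results of these data known. Named genes were all isozyme genes, genes of the lists (the called gene with the largest rise and fall first), marker extremes and the 2 nearest patterns. Some genes of the lists are counted but not reported here by name. RefSeq (mCavPor4.1, another assembly than that of the files) was used for neighbouring genes only, and 10336 symbols matched it. Plots were made in matplotlib 3.10.9 under Python 3.11.15.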

Additional observations from a re-analysis of the deposited data

How the results depend on the processing

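The direction of *G6PC*, *PCK1*, *PKLR*, *HK2*, *HK3*, *PKM* and *PFKP* was the same under every alternative run, and the calls of *G6PC*, *PCK1*, *HK2* and *PKM* were as well. With each animal left out, the higher calls among the 8 genes stayed at 3 and the lower calls were 3 or 4. *PC* was not called with upper-quartile factors (log2 fold change −0.40, adjusted p = 0.0513 from edgeR), with every count row of at least 1 count (−0.40, adjusted p = 0.0796 from edgeR) or at a threshold of 0.01, and with library size alone its value was 1.2e-05. When the null was an absolute log2 fold change of 1, the calls of the 8 genes were 2 higher (*HK2* and *PKM*) and 2 lower (*G6PC* and *PCK1*), those of the other glucose genes were 3 higher and 7 lower, and those of all genes were 1100 in place of 6411. *PKLR* and *PFKP* were not called in that test (adjusted p = 1 and 0.202 from edgeR). With library size alone the other glucose genes gave 33 higher and 15 lower calls, as its shift of all genes by 0.48 entails. Shifts of the ratios given here moved by less than the SD of the controls under every alternative run, but without controls 10 and 56 that of *PKM* to *PKLR* (2.77) and that of *PFKP* to *PFKL* (2.01) moved by more than the smaller SD of the NASH animals. Leaving out controls 10 and 56, NASH animals 41 and 65, or the most abundant gene of a marker list was chosen after the data were seen. No paired analysis was possible because the groups share no animal numbers. *HK2*, with 20 to 61 counts per control, had the fewest counts of the 8 genes.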

Other observations

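Among 16 regulators of these genes found of 21 listed, 4 were higher and 6 lower in NASH, which is 62.5% against 53.9% of all genes. *MLXIPL*, which encodes the carbohydrate-responsive factor ChREBP, an activator of *PKLR*, fell most, from 340.4 ± 64.4 to 88.3 ± 22.7 CPM (SD, n = 6 each), which edgeR put at −1.95 ± 0.18 (SE) on the log2 scale with an adjusted p of 2.38e-06, and its partner *MLX*, on a row with another symbol, fell by 0.67 on the log2 scale. *MYC*, an activator of glycolytic genes in dividing cells, rose most, from 3.06 ± 1.15 to 16.2 ± 2.20 CPM (SD, n = 6 each), which edgeR put at 2.41 ± 0.23 (SE) on the log2 scale with an adjusted p of 3.26e-06. Neither gene had overlapping groups.

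Of the splicing factors known to act on *PKM*, *HNRNPA1* rose by 0.56 and *PTBP1* by 0.16 on the log2 scale. *CREB3L3*, a transcription factor of hepatocytes, fell by 0.92, and *KLF15* fell by 1.09. *PPARGC1A*, *CRTC2* and *CEBPB*, which act on *PCK1* and *G6PC*, had log2 fold changes of −0.07, −0.16 and −0.12 and did not pass the threshold of edgeR, and neither did *HIF1A*, at 0.36. *CREB1*, the factor that *CRTC2* coactivates, rose by 0.87 on the log2 scale (adjusted p = 0.0237 in edgeR).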
